A study of Mus musculus with 4 samples.

Results

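Glucose and fructose enter cells through transporters of the SLC2A family, and hexokinases then trap the sugar as a phosphate. Phosphofructokinase commits it to glycolysis, and lactate dehydrogenase interconverts pyruvate and lactate at the end of the route. Each of these steps has several isoenzymes from separate genes, which differ in affinity, tissue and regulation, and proliferating T cells are known for high glucose uptake and lactate output. The 10 genes described here are the transporters SLC2A1, SLC2A3 and SLC2A5, the hexokinases HK1, HK2 and HK3, the phosphofructokinases PFKM and PFKP, and the lactate dehydrogenase chains LDHA and LDHB. They were taken by symbol from a table of read counts for 58735 genes, and each symbol matched 1 row. They were chosen by their symbols with the fold changes of the comparison below already known, so their values are a description and no p is given for them.

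The libraries are RNA-seq of Jurkat cells, an established human T cell leukaemia line grown in serum-supplemented medium. There were 2 wild-type libraries and 2 libraries labelled as carrying a CRISPR-Cas9 knockout of MATR3, the gene of the RNA-binding nuclear matrix protein matrin 3. No other treatment, clone number or guide is named in the labels, and nothing says that libraries of a group came from separate cultures, so the spread between them may be technical. The organism label reads mouse, whereas every gene identifier in the table is human. The table does not name its genome build, and coordinates are given as it lists them. Total counts lay between 15008554 and 17477643 per library.

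MATR3 had 19 and 9 reads in the wild-type libraries, against 42 and 61 in the pair labelled knockout (log2 fold change 2.05, adjusted p = 2.85e-06 by edgeR's quasi-likelihood test). A second MATR3 row that overlaps it on the same strand held 5, 1, 2 and 2 reads, and reads shared by overlapping rows may be counted for neither. The counts therefore do not check the knockout, and the second group is called "labelled knockout" throughout. T cell markers were present in every library, but 13 of 14 were lower in the labelled knockout libraries by edgeR's quasi-likelihood test at an adjusted p of 0.05, and their summed level went from 3406 to 3660 CPM (counts scaled to library size and composition) in wild-type to 1440 to 1478 CPM. Of 16 myeloid markers, 15 were tested, 14 were higher and 1 lower, and the sum went from 492 to 505 CPM to 6097 to 6215 CPM. Single genes made up most of both sums. CTSG, a granule protease and the lower one, was at 408.0 and 393.1 CPM in wild-type, against 89.8 and 94.8 CPM. MPO, myeloperoxidase, had 148 and 149 reads in wild-type and was at 4972 and 4867 CPM in the labelled knockout libraries. None of the 16 was at 0 reads in all libraries. Beside both marker lists, 66.0% of all tested genes were past the same threshold. Mitochondrial genes took 4.92% to 5.31% of reads in wild-type and 9.33% to 9.49% in the labelled knockout libraries. The part of these shifts in the results below was not tested. Whether the labelled knockout libraries come from the cells their labels name was not tested either, so an effect of the knockout and a difference in the cells themselves cannot be told apart in any fold given here. In bulk RNA, fewer cells of a type and less RNA per cell cannot be told apart.

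Of the 10 members, 9 had enough reads to enter the fit, and the exception was HK3. Of these 9, 4 were past the threshold upward (SLC2A3, SLC2A5, HK2 and PFKM), 4 downward (HK1, PFKP, LDHA and LDHB), and SLC2A1 was not past it. Over all 15294 genes tested, 66.0% were past the same threshold, 33.7% higher and 32.3% lower, so 8 of 9 is read against a background in which most genes differed. Among tested genes averaging at least 30 CPM, the share was 77.9%. Of the 9 tested, 6 were past the threshold and differed at least 2-fold, as did 26.3% of all tested genes. SLC2A5, with 0 wild-type reads, entered the fit only through the labelled knockout libraries and could differ only upward. It is counted in the 8 and in the 6, and the shares over all genes hold such genes too. The median log2 fold change was 0.00 for the 9 members and 0.02 for all tested genes. Hexokinase and phosphofructokinase held members in both directions, lactate dehydrogenase only lower ones, and transport none that were lower past the threshold.

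**Figure D1:**
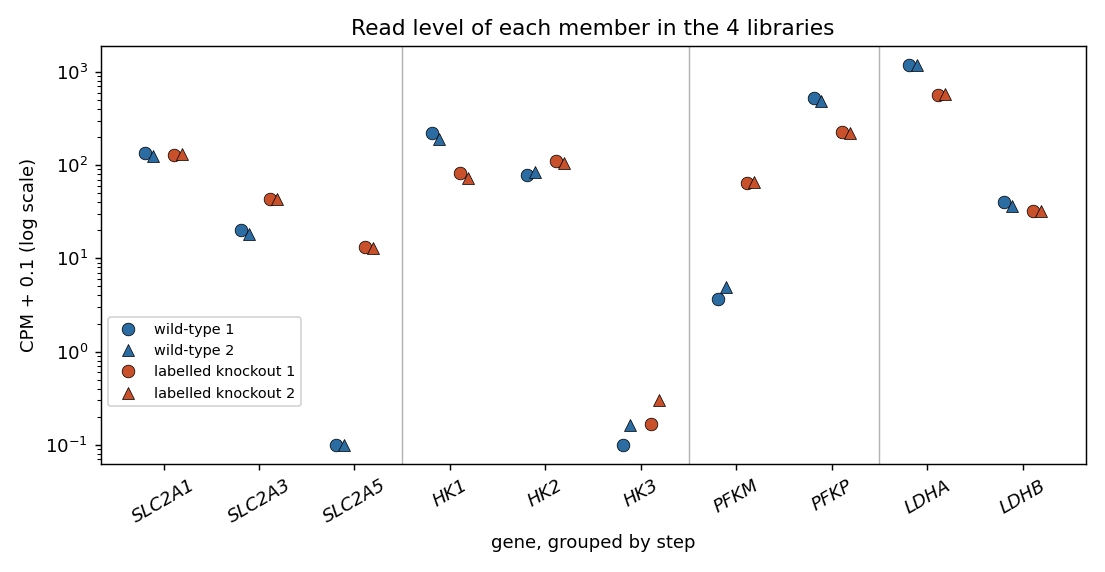
Level of each of the 10 genes as CPM + 0.1 on a log scale, with 1 point per library (circles for replicate 1, triangles for replicate 2). The wild-type and labelled knockout points separate for SLC2A3, SLC2A5, HK1, HK2, PFKM, PFKP, LDHA and, narrowly, LDHB. They overlap for SLC2A1, and HK3 lies near the floor in all 4 libraries.

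Among the 3 member transporters, the most abundant was not past the threshold, while the other two were higher in the labelled knockout libraries. SLC2A1 (GLUT1, the basal glucose carrier of most proliferating cells; ENSG00000117394, chromosome 1, 42925375 to 42959176) was at 134.7 and 125.4 CPM in the wild-type pair and at 129.0 and 131.0 CPM in the labelled knockout libraries. The groups overlapped, and the log2 fold change was 0.00 (SE 0.074). SLC2A3 (GLUT3, a high-affinity glucose carrier of neurons and leukocytes; ENSG00000059804, chromosome 12, 7919230 to 7936275) was at 19.98 and 18.2 CPM in the wild-type pair and at 42.98 and 42.8 CPM in the labelled knockout libraries. The log2 fold change was 1.17 (SE 0.122).

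SLC2A5 (GLUT5, a carrier selective for fructose; ENSG00000142583, chromosome 1, 9035107 to 9088478) had 0 reads in both wild-type libraries and 191 reads in each labelled knockout library. This was 13.0 and 12.9 CPM in the latter, at least 144.0-fold higher if wild-type is set to a floor of 3 counts for the pair, a bound for counting error only. Its level in the labelled knockout libraries was lower than that of SLC2A3 per length of gene, at 1.94 ± 0.0160 against 6.97 ± 0.0189 CPM per kilobase (SD, n = 2). SLC2A14, the near-identical neighbour copy of SLC2A3 on chromosome 12, was listed with 0 reads in all 4 libraries, so a split of reads between these copies is uncertain.

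Per kilobase, the summed level of the 3 transporters was 30.6 ± 1.61 CPM in wild-type, against 36.4 ± 0.265 CPM in the labelled knockout libraries (SD, n = 2 each). SLC2A1 held 89.8% and 90.0% of that sum in the wild-type libraries and 75.4% and 75.8% in the others. The share of SLC2A3 was 10.2% and 10.0%, against 19.3% and 19.0%. The remaining 5.37% and 5.26% in the labelled knockout libraries belonged to SLC2A5. SLC2A1 stayed the leading member in every library.

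The hexokinase pair changed places. HK1 (the widely expressed, mitochondria-bound form; ENSG00000156515, chromosome 10, 69269984 to 69401884) was at 220.7 and 192.6 CPM in the wild-type pair and at 82.1 and 72.4 CPM in the labelled knockout libraries. The wild-type mean was 2.67 times the other (log2 fold change -1.42, SE 0.078). HK2 (the inducible form typical of muscle, fat and tumour cells; ENSG00000159399, chromosome 2, 74833981 to 74893359) was at 79.0 and 84.8 CPM in the wild-type pair and at 111.7 and 106.0 CPM in the labelled knockout libraries. The difference was small beside that of HK1 (log2 fold change 0.41, SE 0.078).

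HK3 (a form of granulocytes and other leukocytes; ENSG00000160883, chromosome 5, 176880869 to 176899332) had 0 and 1 wild-type reads, against 1 and 3 in the labelled knockout libraries. The ratio of 4 reads to 1 was 4.52 after scaling, with a 95% exact conditional interval of 0.448 to 222.7 for counting error only, so no difference was detectable at this depth. The myeloid markers themselves spanned a wide range in the labelled knockout libraries, from 6 and 4 reads for CD14 and 34 and 42 for LYZ to 72889 and 72180 for MPO.

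Per kilobase, HK1 exceeded HK2 by 2.69 and 2.19 times in the wild-type libraries, and was 0.708 and 0.658 of HK2 in the labelled knockout libraries. HK1 thus held 72.9% and 68.6% of the summed level of the 3 hexokinases in wild-type, against 41.4% and 39.6%. The order of the pair was reversed in both labelled knockout libraries. The step as a whole was lower there, at 30.3 ± 1.73 against 46.3 ± 2.48 CPM per kilobase (SD, n = 2 each). HKDC1, a hexokinase-like gene next to HK1 on chromosome 10, fell with it, from 18.5 ± 0.922 to 3.97 ± 0.848 CPM (SD, n = 2 each, log2 fold change -2.22, adjusted p = 6.67e-17 by edgeR's quasi-likelihood test).

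**Figure D2:**
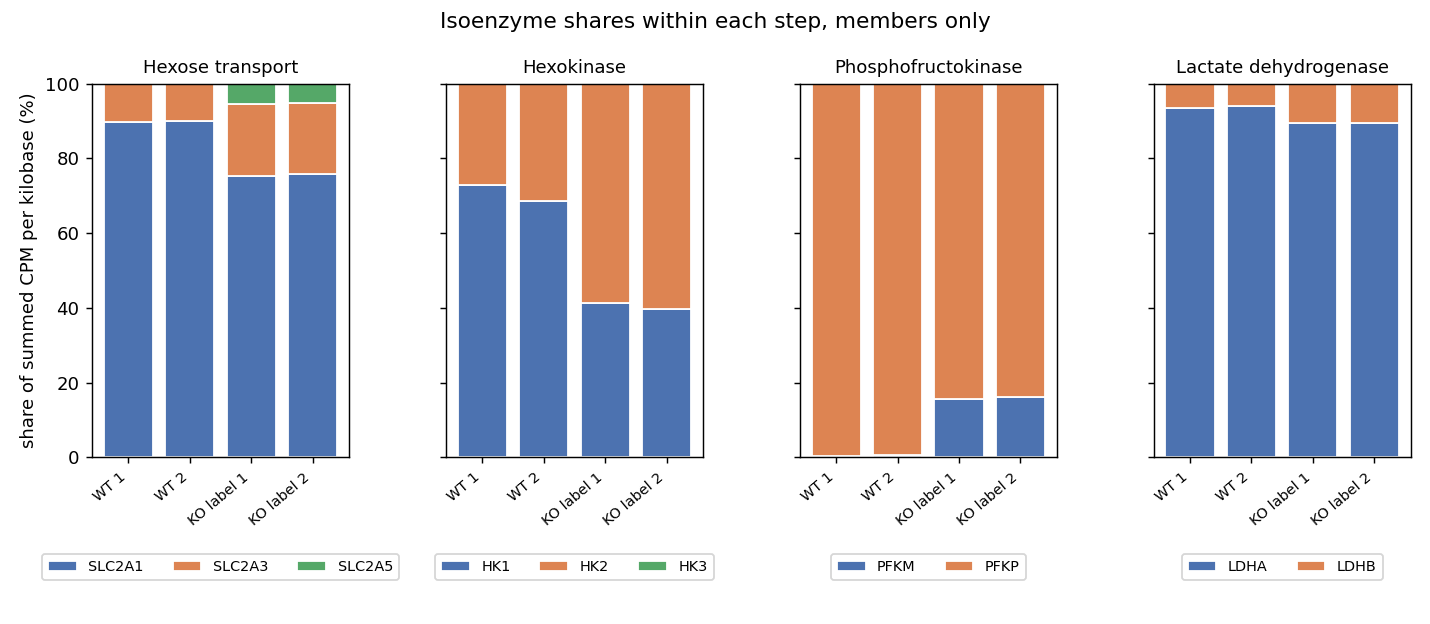
Share of each isoenzyme in the summed CPM per kilobase of the members of its step, in percent, with 1 stacked bar per library. HK2 passes HK1 in the labelled knockout bars, PFKM appears at 15.8% and 16.2% there, and LDHA stays the larger part of its step in every bar.

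Phosphofructokinase works as a tetramer of muscle (PFKM), platelet (PFKP) and liver (PFKL) chains, so the makeup of the pool depends on all 3. PFKM (ENSG00000152556, chromosome 12, 48105139 to 48146404) had 62 and 77 wild-type reads, against 942 and 970 in the labelled knockout libraries, which is 3.56 and 4.84 against 64.3 and 65.4 CPM. The ratio of the means was 15.4, and 3.54% of all tested genes had a larger log2 fold change than its 3.95 (SE 0.144). PFKP (ENSG00000067057, chromosome 10, 3066333 to 3137712) went the other way, from 519.7 and 482.6 CPM in wild-type to 227.0 and 223.2 CPM. The log2 fold change of PFKP was -1.15 (SE 0.071).

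PFKP remained the larger of the pair in every library. Its level per kilobase was 221.0 and 151.0 times that of PFKM in wild-type and 5.35 and 5.16 times in the labelled knockout libraries. Both together stood at 104.2 ± 5.30 CPM per kilobase in wild-type and 55.4 ± 0.454 in the labelled knockout libraries (SD, n = 2 each). PFKL, which is not among the 10, rose from 269.3 ± 10.7 to 383.6 ± 2.03 CPM (SD, n = 2 each, log2 fold change 0.51, adjusted p = 1.10e-09 by edgeR's quasi-likelihood test). With PFKL counted, the shares of PFKP, PFKL and PFKM were 77.1%, 22.5% and 0.430% in wild-type. They were 47.3%, 43.7% and 9.01% in the labelled knockout libraries, so PFKP and PFKL stood close to each other there.

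PFKM is named for muscle, and markers of skeletal muscle were checked beside it. MYOD1, MYOG, MYF5, MYF6 and MYH2 had 0 reads in all 4 libraries. DES and CKM had 0 reads in wild-type and 10 to 23 reads in the labelled knockout libraries, TTN rose by 1.30 on the log2 scale, and ACTA1 was too low to test. The sum of the 9 markers was 4.76 and 5.15 CPM in wild-type, against 15.6 and 12.8 CPM in the labelled knockout libraries. The 3 that could be tested were all past the threshold upward, as were 33.7% of all tested genes. DES and CKM entered the test only through their labelled knockout reads and could differ only upward. The count of 3 therefore says nothing about the marker list. A link between these markers and PFKM was not tested. PFKM shares 1170 bases at its start with SENP1 on the other strand. Without a known strand setting, reads there cannot be assigned, and SENP1 was at a log2 fold change of 0.41.

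Lactate dehydrogenase is a tetramer of LDHA chains, which favour lactate formation, and LDHB chains, which favour its oxidation. LDHA (ENSG00000134333, chromosome 11, 18394388 to 18408425) was the most abundant member in every library, at 1184 and 1189 CPM in wild-type, against 571.3 and 573.5 CPM in the labelled knockout libraries. Replicates lay within 5 CPM of each other and the groups were far apart, with a ratio of wild-type to the other of 2.07 (log2 fold change -1.05, SE 0.072). LDHB (ENSG00000111716, chromosome 12, 21635342 to 21757857) was at 40.2 and 36.6 CPM in wild-type, against 32.4 and 32.2 CPM in the labelled knockout libraries. Its log2 fold change of -0.25 (SE 0.112) was the least secure of the 8, and it was not past the threshold under 9 of 14 alternative settings.

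LDHA per kilobase was 14.2 and 15.6 times LDHB in wild-type and 8.47 and 8.56 times in the labelled knockout libraries. The share of LDHA was 93.4% and 94.0%, against 89.4% and 89.5%. Both genes were lower, LDHA by more, and the summed step was 204.0 ± 0.288 against 103.0 ± 0.183 CPM per kilobase (SD, n = 2 each). The LDHB level carries a counting limit. An antisense row covers 78.0% of its span on the other strand and a protein-coding row covers 18.3% on the same strand, and both held 0 reads in all 4 libraries. Reads that fall in exons shared with such rows may have been left out, so the LDHA to LDHB ratio is uncertain in size. The testis form LDHC and the gene LDHAL6B had 0 reads in all 4 libraries, and LDHAL6A had 0 to 3.

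By level per kilobase, the order in wild-type was LDHA (191.1 ± 0.557 CPM per kilobase), PFKP (103.6 ± 5.42), HK1 (32.8 ± 3.16), SLC2A1 (27.5 ± 1.40), HK2 (13.5 ± 0.670), LDHB (12.9 ± 0.845), SLC2A3 (3.10 ± 0.210), PFKM (0.574 ± 0.123), HK3 and SLC2A5 (SD, n = 2 each). HK2 and LDHB lay within their spread of each other. In the labelled knockout libraries the order was LDHA (92.2 ± 0.240), PFKP (46.5 ± 0.564), SLC2A1 (27.5 ± 0.300), HK2 (18.0 ± 0.671), HK1 (12.3 ± 1.09), LDHB (10.8 ± 0.057), PFKM (8.86 ± 0.110), SLC2A3 (6.97 ± 0.0189), SLC2A5 and HK3. LDHA and PFKP led in both groups. HK1 went from the third place to the fifth, behind SLC2A1 and HK2, and PFKM moved above SLC2A3.

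**Figure D3:**
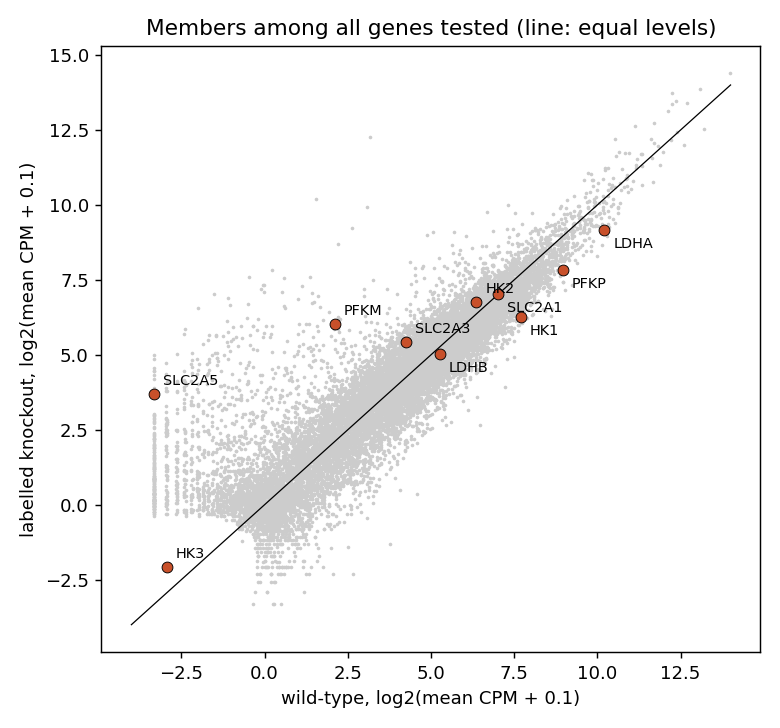
All 15294 tested genes (grey) and the 10 members (red) by log2(mean CPM + 0.1) in wild-type on the x axis and in the labelled knockout libraries on the y axis, with a line at equal levels. PFKM and SLC2A5 lie above the line, HK1, PFKP and LDHA below it, and SLC2A1 on it.

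The enzymes between and after the member steps were lower more often than higher. Of 25 other glycolytic enzymes listed by textbook membership, 16 could be tested: 8 fell and 4 rose (median log2 fold change -0.35). The share past the threshold, 75.0%, was near the background. In the lower part of the route PGK1, which makes ATP from bisphosphoglycerate, fell by 0.93 on the log2 scale (SE 0.073, adjusted p = 3.31e-19). PKM, the pyruvate kinase that precedes lactate dehydrogenase, fell from 3252 ± 219 to 1729 ± 27.2 CPM (SD, n = 2 each). ENO2, the neuronal enolase, fell by 1.11 on the log2 scale, while ENO1, the major enolase, fell by 0.19.

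GPI, TPI1 and PGAM1 fell by 0.43, 0.32 and 0.63 on the log2 scale. GAPDH, the most abundant enzyme of the route, was at 5419 ± 467 and 5573 ± 29.0 CPM (SD, n = 2 each) and did not pass the test. ALDOC, the brain-type aldolase, rose from 25.4 ± 1.10 to 86.8 ± 0.767 CPM, and ADPGK, an ADP-dependent glucokinase, rose by 0.61 on the log2 scale. ALDOA, the main aldolase of most tissues, was listed at 4.44 ± 0.863 and 11.5 ± 0.432 CPM, but 99.4% of its span is shared with another protein-coding row on the same strand, so its level is uncertain. ALDOC is likewise covered in full by a second row. The adjusted p-values in the lists are those of edgeR's quasi-likelihood test over all genes. The lists were chosen with earlier results of these data known, and many genes were named for the size of their change. Adjusted p-values of listed genes, HKDC1 and PFKL included, are therefore a description and not a fresh test.

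**Figure D4:**
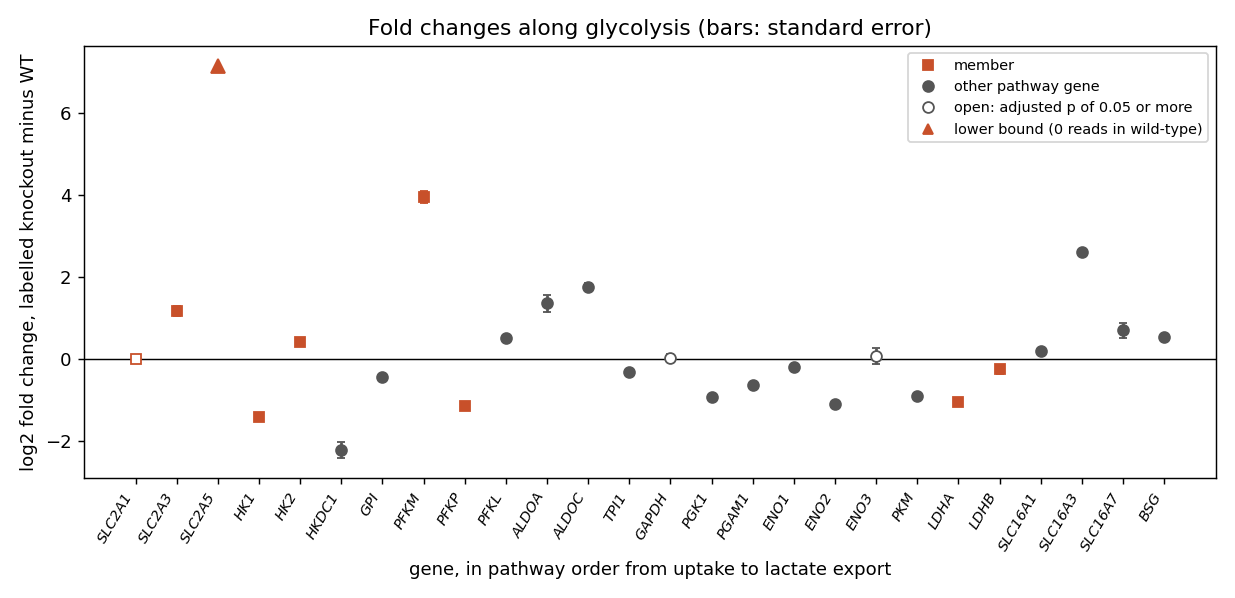
Log2 fold change (labelled knockout minus wild-type, bars are standard errors) of the members in red and other pathway genes in grey, in order from uptake to lactate export. SLC2A5 is drawn as a triangle at 7.17, the log2 of its lower bound. The genes from PGK1 to LDHB lie at or below 0 apart from ENO3, and SLC16A3 is high at the export end.

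Lactate carriers went the other way from the dehydrogenases. SLC16A3 (MCT4, the lactate exporter of glycolytic cells) rose from 58.8 ± 3.43 to 362.7 ± 10.0 CPM (SD, n = 2 each, log2 fold change 2.62, adjusted p = 4.76e-45). CSNK1D overlaps 67.5% of its span on the other strand, and its counts went from 3028 and 2544 to 1979 and 1930 reads. BSG, the chaperone of these transporters, rose by 0.55 on the log2 scale, and SLC16A1 (MCT1) rose by 0.20. MPC2, a subunit of the mitochondrial pyruvate carrier, fell by 1.00 on the log2 scale, and MPC1 was at 0.04. Of 8 genes of monocarboxylate and pyruvate transport, 7 were tested, 5 were higher and 1 lower (median 0.33). The share past the threshold was 85.7%, beside 66.0% of all tested genes. Without replicate 2 of the labelled knockout libraries only 3 of the list were past the threshold, and SLC16A7 was no longer among them (adjusted p = 0.124).

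Other sugar carriers were mostly lower or too low to test. Of 17 listed, 8 were tested, 3 were higher and 4 lower (median -0.84). That was 87.5% past the threshold, against 66.0% of all tested genes. DESeq2 called 4 of the list, 1 higher and 3 lower. SLC2A6 (GLUT6, a lysosomal carrier of leukocytes) fell from 43.0 ± 4.01 to 11.8 ± 0.817 CPM and SLC2A8 (GLUT8) from 33.9 ± 1.28 to 13.5 ± 0.512 CPM (SD, n = 2 each). SLC50A1, the human SWEET family gene, rose by 0.52 on the log2 scale, and SLC2A13, a myo-inositol carrier, by 0.76. SLC2A13 was not past the threshold with DESeq2 (adjusted p = 0.0638) or, in edgeR's test, without replicate 1 of the labelled knockout libraries (adjusted p = 0.0566). Over all 20 transporters listed, the summed level was 71.4 ± 4.90 CPM per kilobase in wild-type and 69.5 ± 0.102 in the labelled knockout libraries. On that wider base the share of SLC2A1 was 38.6% and 39.6%, so the lower share of SLC2A1 among the members depends on which carriers are counted.

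Genes that set the glycolytic rate were higher for 8 and lower for 4 of 13 tested (17 listed, median 0.63). This put 92.3% past the threshold, where 66.0% of all tested genes were. FBP1, the gluconeogenic phosphatase that opposes phosphofructokinase, rose from 0.432 ± 0.367 to 9.83 ± 0.206 CPM (SD, n = 2 each). TXNIP, which promotes the internalisation of SLC2A1 protein, rose from 115.7 ± 0.406 to 566.7 ± 1.91 CPM, and its relative ARRDC4 rose by 1.56 on the log2 scale. PFKFB3, whose product makes the activator of phosphofructokinase, fell by 0.62 on the log2 scale, while PFKFB4 rose by 0.87. The transcription factor genes MYC and HIF1A, known activators of glycolytic genes, rose by 0.63 and 0.82.

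In the pentose phosphate pathway, the main branch from glucose 6-phosphate, all 9 tested of 10 listed genes passed the test, 3 higher and 6 lower (median -0.32). Over all tested genes 66.0% passed, and 77.9% of those averaging at least 30 CPM. TKT, transketolase, rose from 943.8 ± 84.1 to 1586 ± 59.2 CPM (SD, n = 2 each). Genes that bring fructose, galactose, mannose and hexosamines into the route were higher for 3 and lower for 6 of 15 tested (median -0.10). Their share past the threshold, 60%, was near that of all tested genes. The 3 higher genes, UGP2, GFPT1 and TKFC, rose by 0.79, 0.64 and 0.41 on the log2 scale. KHK, the ketohexokinase that phosphorylates fructose, fell by 1.25 on the log2 scale, and AKR1B1, the aldose reductase of the polyol route to fructose, fell from 404.7 ± 29.6 to 142.8 ± 5.93 CPM (SD, n = 2 each, edgeR adjusted p = 6.73e-31). The fructose carrier SLC2A5 was higher, and KHK lower, in the labelled knockout libraries than in wild-type. In level per kilobase, SLC2A5 lay below KHK in both labelled knockout libraries. A link between the changes of SLC2A5 and KHK was not tested.

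Hypoxia-response genes outside glycolysis were higher for 11 and lower for 2 of 16 tested (19 listed, median 0.41). The share past the threshold was 81.2%, against 66.0% of all tested genes and 77.9% of those averaging at least 30 CPM. DESeq2 called 10 of the list, 9 higher and 1 lower. DDIT4, VEGFA and MXI1 rose by 2.73, 1.65 and 1.15 on the log2 scale. Genes of glucose use went both ways in the same libraries. LDHA and PGK1, which are also known hypoxia targets, were lower, as were HK1, PFKP, PFKFB3, ENO1, ENO2, PKM, PGAM1, TPI1 and GPI. SLC2A3, HK2, PFKFB4 and SLC16A3 were higher, as were PFKM, PFKL and ALDOC, while SLC2A1 and GAPDH were not past the threshold. Whether a hypoxia response differed between the groups was not tested.

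The members did not share the shifts of their chromosomal surroundings in a common way. The 10 nearest tested genes of each member, 5 on each side, had median log2 fold changes from -0.37 (HK1) to 0.48 (LDHB). PFKM at 3.95 stood above all 10 of its neighbours, whose range was -2.03 to 0.91, and the adjacent genes SENP1 and ASB8 were at 0.41 and 0.06. SLC2A5 lay between genes at -1.31 to 0.85, among them ENO1 and H6PD. Near HK1, HKDC1, TSPAN15 and FAM241B were lower, at -2.22, -1.53 and -1.45, while SRGN, the serglycin gene, was at 4.03. PITRM1, which adjoins PFKP, was at -1.28, close to PFKP itself. Near SLC2A3, CD163L1 and C3AR1 were at 5.31 and 3.37, above SLC2A3.

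**Figure D5:**
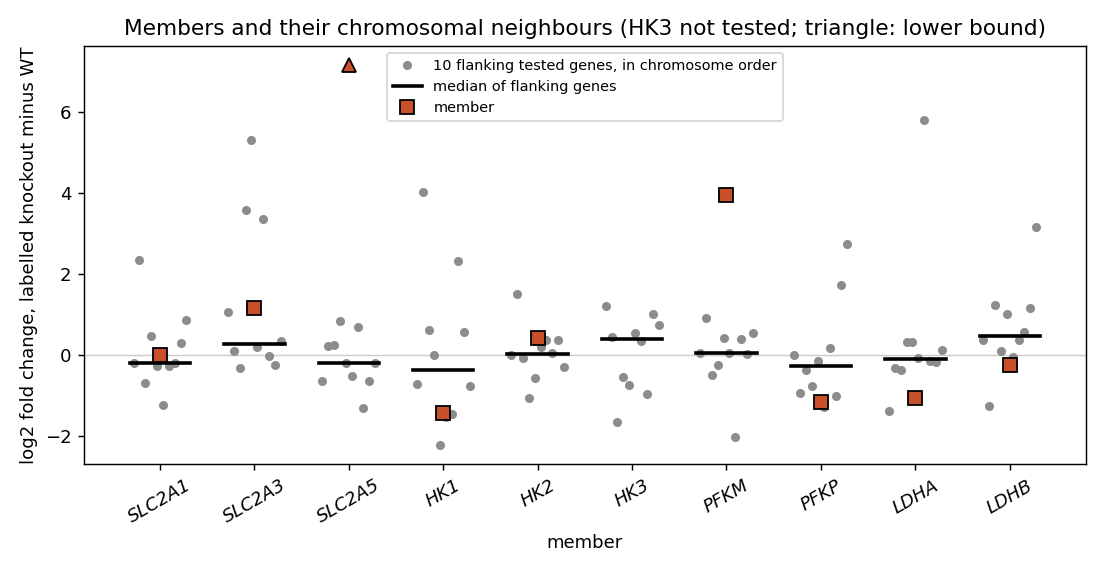
Log2 fold change of each member (red square) and of its 10 nearest tested genes in chromosome order (grey), with the median of the 10 as a line. Genes with 0 wild-type reads are drawn at the log2 of their lower bound, and the red triangle is SLC2A5. PFKM and SLC2A5 stand above all their neighbours, and HK1 lies among several low ones.

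The protein-coding genes nearest to each tested member in level over the 4 libraries, by Euclidean distance of log2 CPM among 12767 genes, were of mixed kinds. Among them were DCAF15 for SLC2A1 (distance 0.037), TRANK1 for SLC2A3, A2ML1 and KLHL9 for SLC2A5, HDHD5 and LSS for HK1, and PDXDC1 and EML3 for HK2. For PFKM they were FNDC3B and ETV5 (0.373 and 0.457), the widest distances, and for PFKP WDR34 and HDAC1. For LDHA they were septin 9, whose symbol the table gives in date form, and GSTP1, and for LDHB ZNF276 and GCC1. With 2 groups of 2 libraries this measure reflects only the level and the difference between groups.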

How the data were processed

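The authors deposited 1 table of raw read counts per gene, without normalization. Its 4 count columns were assigned by the short names in the sample descriptions. CASAVA 1.8, HISAT2 2.0.5 and featureCounts 1.5.0-p3 appear, per the submitters' processing notes, without a role. For the strand setting, multi-mapping reads and genome build, the sources used here give nothing. Depths ranged from 15008554 to 17477643 counts.

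edgeR 4.0.16 (R 4.3.3) was fitted to the whole table with TMM scaling, its expression filter (10 counts, 15 in total) and the quasi-likelihood test (two-sided), adjusted by Benjamini-Hochberg over 15294 genes at 0.05. The standard error is the log2 fold change over the square root of F. Levels between genes use the deposited gene length. On counts simulated for this comparison (15294 genes), with a small part of the genes changed, the fit recovered known changes. A difference in most genes, as in these data, was not simulated. Chi-square per gene between replicates was 5.83 (wild-type) and 2.21, above sampling noise, so each library counted once.

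The members and gene lists were chosen with earlier results of these data known. Named besides members were up to 3 genes per direction and list, at 5 CPM or more, paralogues, neighbours and the 2 nearest genes in level. Other listed genes (ENO1, GPI, TPI1, PGAM1, PKM, GAPDH, MYC, HIF1A, PFKFB4, SLC16A1, MPC1, EGLN3) were named after their values were seen. A few genes that this rule would name are not reported here. Alternatives were DESeq2 1.42.0, limma 3.58.1 voom, other scalings and filters, a replicate block and each library left out. Same-numbered libraries did not deviate together (r = 0.024 over 10827 genes), so numbers were not taken as pairs.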

Additional observations from a re-analysis of the deposited data

How the results depend on the processing

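The members past the threshold numbered 8 in the reported fit and 7 or 8 under all 14 alternatives, with the same 4 higher in each. LDHB left the count under upper-quartile scaling, DESeq2, no expression filter, protein-coding genes only, an adjusted p of 0.01, the replicate block, and without wild-type replicate 1 or either labelled knockout library (its log2 fold change lay between -0.33 and -0.16 over all settings). SLC2A1 ranged from -0.07 to 0.07 and was never past the threshold. Genes past the threshold over the whole table ranged from 8018 to 10263. With a replicate block there were 10072 such genes and 7 members, and no other member's call changed. Leaving out single libraries gave 3 to 6 genes of monocarboxylate and pyruvate transport, 0 to 2 erythroid and 1 to 3 muscle markers. Other hexose transporters numbered 4 under DESeq2 (1 higher, 3 lower), erythroid markers 1 under upper-quartile scaling, DESeq2 or no filter, and muscle markers 1 under a filter of 1 CPM.

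With raw counts in place of counts per kilobase, the wild-type and labelled knockout shares were 87.2% and 69.9% for SLC2A1, 99.2% and 77.6% for PFKP, and 96.9% and 94.7% for LDHA. With all listed isoenzymes they were 38.6% and 39.6% for SLC2A1, 64.0% and 38.9% for HK1, and 77.1% and 47.3% for PFKP. The median of the flanking genes depended on the window. With 3 genes a side it was 1.78 for SLC2A3, 0.035 for SLC2A5, -0.73 for HK1, -0.64 for HK3, -0.094 for PFKM, -0.57 for PFKP and 0.12 for LDHA. With 10 a side it was 0.10 for SLC2A1, 0.20 for SLC2A3, -0.38 for SLC2A5, -0.10 for HK1, -0.050 for HK3, 0.0012 for PFKM, -0.15 for PFKP and 0.16 for LDHA. Leaving out single libraries gave 0.15 to 0.39 for SLC2A3, -0.22 to 0.0077 for SLC2A5, -0.39 to -0.26 for HK1, -0.055 to 0.24 for HK2, 0.34 to 0.44 for HK3, 0.068 to 0.13 for PFKM, -0.14 to 0.11 for LDHA and 0.24 to 0.68 for LDHB. The cause of these shifts was not tested.

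Genes with few reads, HK3 above all, are limited by depth.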

Other observations

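Other marker lists gave these values in the same fit, in which 66.0% of all tested genes were past the threshold. Of 6 B cell markers, 2 were tested, with PAX5 higher, from 0 reads in wild-type, and CD79A lower by 1.36 on the log2 scale. Of 11 erythroid markers, 2 were tested (KLF1 and EPOR) and 0 passed in edgeR's quasi-likelihood test, with 1 at an unadjusted p under 0.05. DESeq2 called 1 and limma voom 0. GYPB, HBG1 and HBB had 0 reads in all 4 libraries. Of 6 epithelial markers, 3 were tested and all were higher, led by KRT18 at 4.53, while EPCAM and KRT19 had 0 reads in all 4 libraries. Of 15 genes encoded by the mitochondrial genome, 15 were higher (median 1.01).

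EGLN3, a prolyl hydroxylase that is itself a hypoxia target, fell from 28 and 46 reads in wild-type to 1 and 2 in the labelled knockout libraries, against the direction of DDIT4 and VEGFA. FBP2, the muscle form of fructose bisphosphatase, had 0 wild-type reads and 15 and 11 reads in the others, at least 9.80-fold higher if wild-type is set to 3 counts for the pair.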
